A study of Homo sapiens with 12 samples.

Results

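The samples were cardiomyocytes made from RUES2, an established human embryonic stem cell line, and the libraries described here are the 4 that carry biological replicate number 3, out of 12 in the series. They were chosen by the replicate number in their titles and not by any measured value. All groups share the line, the wild-type genotype, a start at day 50 and 3 days on an electrospun fibre scaffold. Each number was grown on 8% PVA, a non-conductive polymer, and on 9.75% PEDOT:PSS/PVA, a conductive blend called PEDOT here. Number 3 therefore holds 2 libraries on PVA and 2 on PEDOT, named library 1 and library 3 on each scaffold. Numbers 1 and 2 hold 4 libraries each, also 2 per scaffold, 8 in all. Their technical numbers differ from those of number 3. They are 2 and 3 in number 1, and in number 2 they are 2 and 3 on PVA and 1 and 2 on PEDOT. The labels do not say what a number marks (a differentiation, a thaw or a day), nor what separates the technical libraries of 1 number and scaffold. The line is 1 genetic background, so the numbers are not donors. Number 3 was compared with the mean of numbers 1 and 2, each given equal weight, and then with each of them alone.

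Stem cell differentiation gives cultures that are mostly cardiomyocytes with varying admixtures of other cells, among them fibroblast-like stroma, smooth muscle, epicardial and neural derivatives. Cultures of 1 line can also differ in the share of dividing cells and in atrial, ventricular or nodal character. Immediate early genes such as FOS and JUNB encode transcription factors that are induced within minutes by growth factors, calcium entry, stretch and cell handling, and they need no new protein to be switched on. Replication-dependent histone genes are expressed in S phase, and their transcripts end in a stem-loop in place of a poly(A) tail, so ribodepleted total RNA keeps them in view.

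Library totals were 24 to 30.95 M assigned counts in number 3, 19.1 to 30.2 M in number 1 and 19.7 to 26.5 M in number 2. The cardiomyocyte label was met in number 3. TTN, the giant sarcomere spring, was at 45738 to 55190 CPM (assigned counts scaled to the library total, with TMM factors), MYH6, the alpha myosin heavy chain, at 16671 to 20670 CPM, and TNNT2, cardiac troponin T, at 297 to 368 CPM. Among the 12 libraries the first principal component of log2 CPM (39.7% of the variance) held number 3 between the others, at -14.1 to -2.04 against -53 to -46.4 for number 1 and 49.7 to 61.3 for number 2. The second component (15.3%) set number 3 apart, at -40.1 to -32.7 against 5.71 to 26.6 for the other 8 libraries. The root mean square log2 distance between sums of technical libraries was 0.394 between the scaffolds of number 3. It was 0.566 to 0.622 between numbers 3 and 1, 0.640 to 0.676 between 3 and 2, and 0.772 to 0.834 between 1 and 2.

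**Figure D1:**
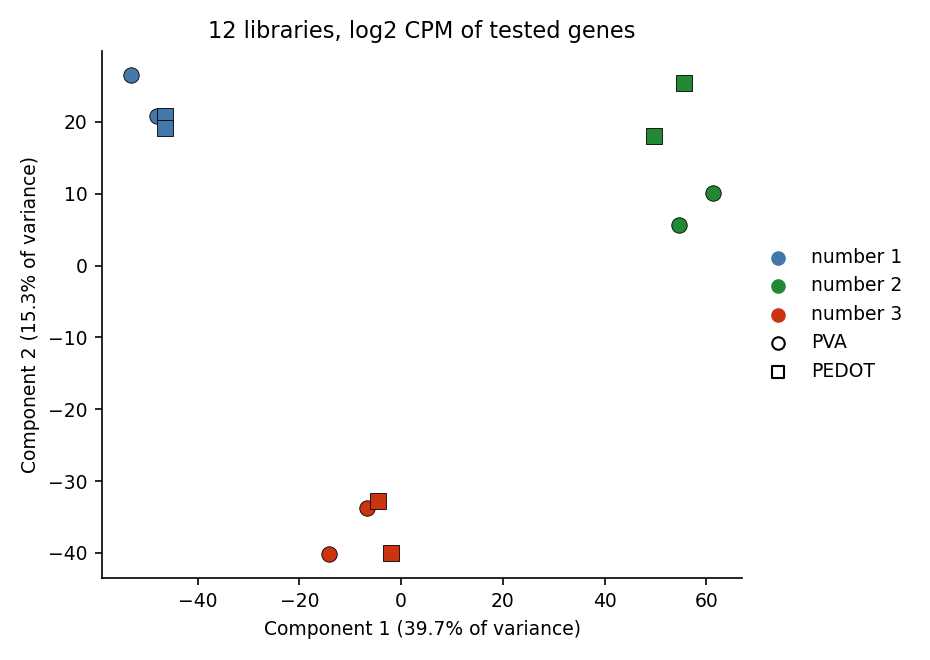
First and second principal component scores (no unit) of log2 CPM for the 12 libraries, coloured by replicate number, with circles for PVA and squares for PEDOT. The 4 libraries of number 3 lie between the other numbers on component 1 (39.7% of the variance) and below both on component 2 (15.3%).

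The libraries of number 3 on PVA were first set against each other, since they should differ least. Library 1 had higher levels of genes that rise when oxygen is short, of interferon-induced genes and of mitochondrial ribosomal RNA than library 3, and library 3 had higher levels of several mesenchymal genes. Of 11795 genes with a mean of 5 CPM or more, 41 (0.348%) differed by 2-fold or more, 32 higher in library 1 and 9 higher in library 3. There is 1 library a side, so this has no test. The PEDOT pair of number 3 also had 41 such genes (0.348%). The pairs of numbers 1 and 2 had 3 (0.0254%) for PVA number 1, 11 (0.0933%) for PEDOT number 1, 22 (0.187%) for PVA number 2 and 17 (0.144%) for PEDOT number 2. The technical libraries of number 3 on each scaffold thus differed in more genes than those of any pair of numbers 1 and 2. No pair of numbers 1 and 2 sets technical number 1 against 3, as both pairs of number 3 do, so the pairs are not alike. The chi-square per gene of the PVA number 3 pair was 14.5, against 5.86 to 9.65 for the other 5 pairs, so none of the pairs is 1 library deposited again. Pearson's r across genes was 0.992 for the PVA number 3 pair, and genes are not independent replicates.

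Most of this difference was shared by the PEDOT pair. Of the 41 genes, 38 differed in the same direction between PEDOT libraries 1 and 3 of number 3, and 23 of them by 2-fold or more. STC1, which encodes the glycoprotein hormone stanniocalcin 1, was at 39.3 CPM in PVA library 1 and 7.04 CPM in PVA library 3, and at 33.4 and 8.12 CPM on PEDOT. PFKFB4, a regulator of glycolysis, was at 36.6 and 7.15 CPM on PVA and at 39.5 and 8.66 CPM on PEDOT. MIR210HG, the host RNA of the hypoxia-induced miR-210, was at 15.1 and 3.85 CPM on PVA and at 14.5 and 3.89 CPM on PEDOT. DDIT4, a stress-induced inhibitor of mTORC1, NDRG1, another gene induced by low oxygen, APLN, the peptide hormone apelin, and the pseudogene SCAND2P followed the same course. NDRG1 was at 28.6 and 9.12 CPM on PVA and at 38.5 and 9.67 CPM on PEDOT, and APLN at 21.9 and 6.54 and at 32.4 and 5.15 CPM. Over the 20 tested hypoxia response genes, the median log2 difference of library 1 from library 3 was 0.74 on PVA and 0.74 on PEDOT. In the other 4 pairs, taken as the lower-numbered library minus the higher-numbered one, it was between -0.44 and 0.38. Levels of STC1 in numbers 1 and 2 ranged from 7.67 to 56.5 CPM, so libraries of the other numbers covered the same span.

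Other genes differed more in the PVA pair than in the PEDOT pair. MX1, an interferon-induced antiviral GTPase, was at 33.4 and 7.66 CPM in PVA libraries 1 and 3 and at 4.58 and 5.31 CPM on PEDOT. The median over 39 interferon response genes was 0.50 in the PVA number 3 pair and between -0.02 and 0.08 in the other 5. MT-RNR1 and MT-RNR2, the mitochondrial ribosomal RNAs, were at 382 and 478 CPM in PVA library 1 and at 85.4 and 121 CPM in library 3, while the PEDOT libraries were at 188 and 172 CPM for MT-RNR1 and at 222 and 205 CPM for MT-RNR2. Ribodepletion is aimed at these RNAs, and their part in the other differences was not tested. THY1, a surface glycoprotein of fibroblasts, went the other way, at 11.5 and 32.6 CPM on PVA and at 10.9 and 11.2 CPM on PEDOT. PAPPA, a protease that frees insulin-like growth factor, was at 70.0 and 159 CPM on PVA and also lower in library 1 of PEDOT, at 50.3 and 67.1 CPM. The chemokine CCL2 was at 5.70 and 12 CPM in the PVA libraries and at 4.45 and 6.36 CPM in the PEDOT ones. CCDC80, a matrix-associated protein, was at 65.3 and 138 CPM on PVA and at 117 and 96.1 CPM on PEDOT. LUM, the matrix proteoglycan lumican, was at 14.1 and 28.1 CPM there, while both PEDOT libraries were at 27.5 and 23.7 CPM. CYP1B1, an inducible cytochrome P450, differed by as much on PEDOT and was lower in library 1 on both scaffolds, at 3.45 and 9.04 CPM on PVA and at 3.41 and 10.1 CPM on PEDOT. Of the 41 genes, 4 are also among the genes described below for which number 3 lay beyond both other numbers: EFEMP1, GLIPR1, SNAI2 and TNMD.

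**Figure D2:**
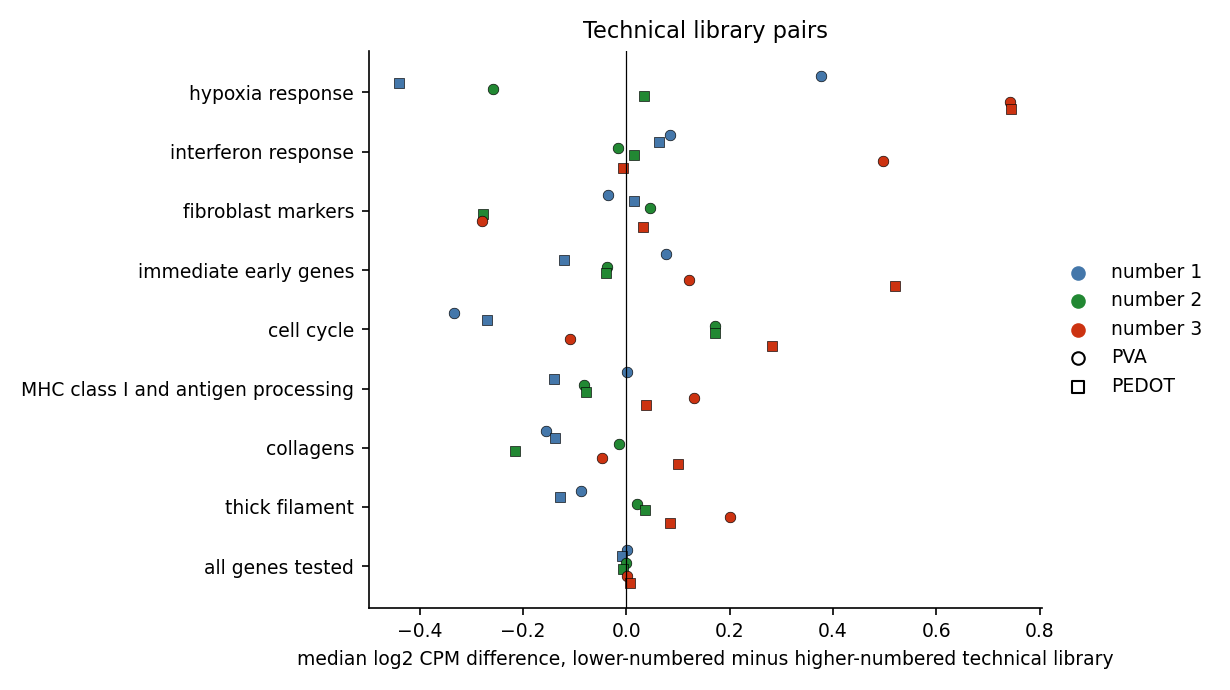
Differences between the technical libraries of each number and scaffold: for the gene lists shown, the median log2 CPM difference of the lower-numbered library minus the higher-numbered one in each of the 6 technical pairs. Hypoxia response genes stand at 0.74 in both pairs of number 3, and interferon response genes at 0.50 in the PVA pair of number 3 alone.

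Number 3 was the number that lay beyond both others least often. Against the mean of numbers 1 and 2, 2174 of 22262 tested genes passed edgeR's quasi-likelihood test (Benjamini-Hochberg adjusted p under 0.05), 1478 higher (6.64%) and 696 lower (3.13%). With counts scaled to library size only, 1047 were higher and 978 lower, so the surplus of higher calls depends on the scaling, which moved the median of all genes by less than 0.1 on the log2 scale. The scaffold term takes out the mean difference between the 2 scaffolds. The p-values therefore measure how far the scaffold difference varied between numbers, and not the spread between cultures. There were 2 residual degrees of freedom, and edgeR moderated the spread of each gene with that of the other genes. Without the PVA sum of number 3 the test called 1036 genes, and without its PEDOT sum 1098. Without PEDOT library 3 alone it called 453 genes lower. Of the 2174 called genes, 364 had an estimate for number 3 between the other numbers. The other 1810 lay beyond both in the estimate, 630 of them past the threshold against each number alone, 730 against number 2 only, 426 against number 1 only and 24 against neither.

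Genes were then counted as outside both other numbers when number 3 differed from number 1 and from number 2 in the same direction, each past the threshold, and all 4 of its libraries lay beyond all 8 others in log2 CPM. There were 467 such genes, 318 higher (1.43% of those tested) and 149 lower (0.669%). By this rule the libraries of number 3 cannot overlap the others in these genes, so a lack of overlap stated for one of them below is no added result. The same rule gave 851 higher (3.82%) and 721 lower (3.24%) for number 1, and 950 higher (4.27%) and 1507 lower (6.77%) for number 2. Against number 1 alone, 1481 genes were higher (6.65%) and 1448 lower (6.50%), and against number 2 alone 2555 were higher (11.5%) and 1626 lower (7.30%). These comparisons share the libraries of number 3. The list counts below are to be read beside the share of all tested genes in the same comparison, which is largest for higher calls against number 2. Called "nearer difference" here is the log2 difference of number 3 from whichever other number was closer. It was 1 or more, a 2-fold distance, for 91 of the 467 genes, 58 higher and 33 lower. The genes just under and just over that line stood at 0.995 and 1.00.

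**Figure D3:**
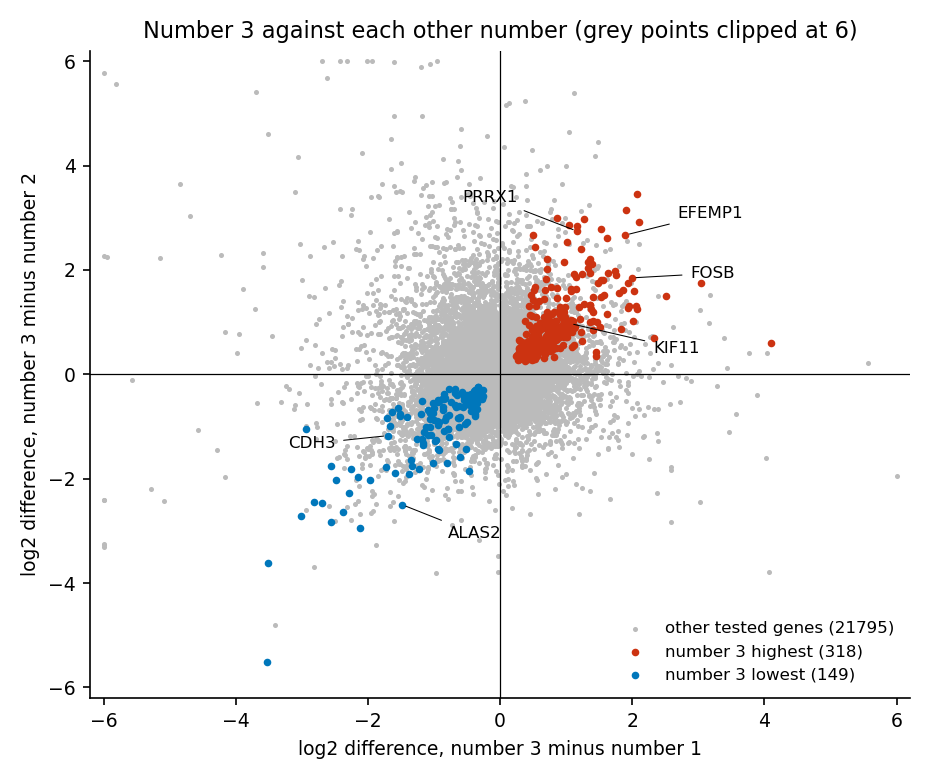
Each tested gene by its log2 difference of number 3 from number 1 (x axis) and from number 2 (y axis), with red and blue points for the 318 and 149 genes for which number 3 was highest or lowest. Values beyond 6 are drawn at 6. Coloured points fill only the upper right and lower left by the rule that chose them, and most genes scatter around 0.

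Immediate early genes were higher in number 3 than in either other number. Of 17 tested members, 14 were called higher and 0 lower against the mean, where 6.64% and 3.13% of all tested genes were. The list's median log2 difference was 0.56, and that of all tested genes 0.0009. Against number 1 alone 11 rose and 1 fell, and against number 2 alone 14 rose and 0 fell. Only 4 members lay outside both numbers, all higher, where 1.43% of all tested genes did so from above. The promoters of the 3 members described next hold the letters of the cAMP response element core, and this element is known as a route by which cAMP and calcium act on FOS. Each line gives the 150 bases before the RefSeq transcript start on GRCh38.p14, 5′ to 3′ on the strand of the gene, with the core of the cAMP response element (TGACG, searched on both strands) in capitals.
FOS (chr14:75278678-75278827, plus strand): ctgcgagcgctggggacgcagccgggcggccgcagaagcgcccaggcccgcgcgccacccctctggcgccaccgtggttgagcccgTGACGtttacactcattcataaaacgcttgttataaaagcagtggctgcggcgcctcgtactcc
FOSB (chr19:45467846-45467995, plus strand): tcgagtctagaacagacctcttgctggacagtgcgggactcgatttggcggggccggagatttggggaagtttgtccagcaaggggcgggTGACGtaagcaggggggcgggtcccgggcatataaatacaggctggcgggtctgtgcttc
JUNB (chr19:12791336-12791485, plus strand): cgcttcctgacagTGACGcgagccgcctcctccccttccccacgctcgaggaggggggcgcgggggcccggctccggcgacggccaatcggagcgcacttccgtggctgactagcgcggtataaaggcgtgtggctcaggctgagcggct
The core begins 64 bases before the start in FOS, 60 in FOSB and 137 in JUNB. RefSeq promoters were found for 13 of the 17 genes. Of their 17 promoters, 9 (52.9%) held TGACG in this window, against 15.4% of all 35116 promoters in the table. A match is a run of letters and not a shown binding site.

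FOSB, a partner of JUN proteins in the AP-1 transcription factor (gene at chr19:45467995-45475179 on hg38 in the deposited table), had the smallest adjusted p of these genes. In number 3 it stood at 123 and 113 CPM on PVA and at 133 and 44.9 CPM on PEDOT. In number 1 it was 27.1, 26.9, 30.5 and 19 CPM, and in number 2 it was 20.6, 39.4, 21.9 and 29.9 CPM. All 4 libraries of number 3 lay above all others, but PEDOT library 3 was far below its 3 companions. The log2 difference was 1.92 ± 0.07 (SE, edgeR adjusted p 6.39e-10). FOS, the founding member of the family, was at 331 and 301 CPM on PVA and at 383 and 215 CPM on PEDOT. In number 1 FOS stood at 143, 128, 142 and 120 CPM and in number 2 at 134, 174, 146 and 132 CPM. The groups did not overlap, which the rule for genes outside both requires. Its log2 difference was 1.13 ± 0.07 (edgeR adjusted p 9.41e-08).

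JUNB, an AP-1 subunit, was at 143, 139, 130 and 83.6 CPM in number 3, 64.9 to 79.8 CPM in number 1 and 49.9 to 62.6 CPM in number 2. Here too PEDOT library 3 was the lowest of its number and close to the highest library of number 1. JUN itself was at 192, 149, 162 and 110 CPM, and the last of these lay within the 99.1 to 111 CPM of number 1. It was called higher than each number alone but is not among the genes outside both. ATF3, a stress-induced member of the ATF family, was called at 0.47 ± 0.09 (edgeR adjusted p 0.00333), a call lost in 3 of 29 alternatives, among them leaving out PEDOT library 1 of number 3. MYC is also on the list, with a log2 difference near 0. The list's summed level was 952 to 1397 CPM in number 3, 779 to 824 in number 1 and 674 to 764 in number 2. Between the technical libraries of number 3 on PEDOT, the list's median was 0.52 higher in library 1. The count of 14 fell to 7 with the higher-numbered technical libraries alone, to 8 without the PVA sum of number 3 and to 10 without PEDOT library 1 of number 3, and the list's median log2 difference was between 0.44 and 0.69 over all settings tried. BTG2, an antiproliferative gene that is itself rapidly induced, was higher at 0.51 ± 0.07 (edgeR adjusted p 2.21e-04).

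By the median of the list, cell cycle genes were higher in number 3 than in each other number, by more on PEDOT than on PVA. Of 36 tested, 25 were called higher and 0 lower, and 11 lay outside both numbers, with a median log2 difference of 0.69. The median was 0.34 on PVA and 1.10 on PEDOT, a gap that was not tested. Against number 1 alone 24 rose and against number 2 alone 20 rose, and 0 fell in either. The promoters of 2 members, a spindle motor and a helicase subunit, are given as examples of the CCAAT box that many genes of this kind carry. The box is in capitals and reads ATTGG where it lies on the other strand.
KIF11 (chr10:92592980-92593129, plus strand): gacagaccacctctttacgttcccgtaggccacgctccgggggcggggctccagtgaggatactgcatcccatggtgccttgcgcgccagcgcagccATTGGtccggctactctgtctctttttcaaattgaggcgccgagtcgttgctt
MCM6 (chr2:135876444-135876593, minus strand): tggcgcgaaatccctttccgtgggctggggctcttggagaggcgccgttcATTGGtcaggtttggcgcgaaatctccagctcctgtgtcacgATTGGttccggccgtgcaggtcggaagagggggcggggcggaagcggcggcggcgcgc
The KIF11 box begins 53 bases before the start, and those of MCM6 begin 100 and 58 bases before it. Of 33 promoters found for 29 of the 36 genes, 26 (78.8%) held CCAAT on either strand, against 23.5% of all promoters in the table. CCAAT stood in 17.6% of the immediate early promoters and TGACG in 21.2% of the cell cycle ones. The motifs can share a base at their ends, and such matches were counted for both.

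KIF11, the kinesin motor that separates the spindle poles (chr10:92593130-92655395), had 20.2 and 23.2 CPM in the PVA libraries of number 3, and its PEDOT libraries had 25.8 and 22 CPM. It was at 13.8, 17.2, 6.44 and 8.42 CPM in number 1 and 12.2, 12.4, 11.8 and 10.5 CPM in number 2. The PEDOT libraries of number 1 were the low ones, and the groups did not overlap, which the rule for genes outside both requires. The log2 difference was 1.01 ± 0.16 (SE, edgeR adjusted p 7.23e-04). The MCM proteins form the helicase that unwinds DNA at replication origins. MCM3 was at 76.5 to 84.6 CPM in number 3 and 53 to 66.0 CPM in all others, a log2 difference of 0.44 ± 0.07 (edgeR adjusted p 5.78e-04). MCM5 was at 32.9 to 37.0 CPM against 19.7 to 29.6 CPM, and it too lay outside both. MCM6, at 37.0 to 47.2 CPM, overlapped PVA library 3 of number 1, which was at 38.4 CPM.

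Replication-dependent histone genes moved the same way, with 25 of 54 called higher, 1 lower and a median log2 difference of 0.37 (0.25 on PVA and 0.54 on PEDOT). The summed level of the histone list in number 1 was again lower on PEDOT (678 and 816 CPM) than on PVA (936 and 1107 CPM). H1-5, a linker histone, was at 36.4, 30.9, 39 and 28.9 CPM in number 3 against 8.75 to 26 CPM in the others, a log2 difference of 0.94 ± 0.14 (edgeR adjusted p 4.06e-04). H3C7, a core histone H3 gene, was at 11.3 to 12.8 CPM against 3.12 to 9.81 CPM. H2AC11 overlapped only slightly, at 28.9 to 36 against 16.3 to 29.1 CPM. H4C6 was at 23.3 to 29.1 CPM in number 3 and 21.8 to 26.6 CPM in number 2, and its difference lay with number 1 alone. Histone genes are near-identical in sequence, and reads that match several places were left out of the counts, so the levels of single members are uncertain.

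The counts of 25 changed with the method and with single sums. DESeq2 called 13 cell cycle and 16 histone genes higher, upper-quartile scaling 14 and 15, and library size only 16 of each. Without the scaffold term it was 12 and 13, and at a mean of 5 CPM or more 13 and 12. The lower-numbered technical libraries alone gave 14 cell cycle genes and the higher-numbered ones 10 histone genes. Without the PEDOT sum of number 3, 6 cell cycle and 6 histone genes were called higher, and without the PVA sum of number 2 it was 14 and 12. Leaving out PEDOT library 3 of number 1 left 14 of each list, and leaving out PVA library 3 of number 2 left 16 cell cycle genes. The histone count was 15 without PEDOT library 1 of number 3, 16 without PVA library 1 of number 3 and 16 without the PEDOT sum of number 2. The cell cycle median stayed between 0.33 and 1.09 in all settings tried. The summed level of the cell cycle list was 812 to 948 CPM in number 3, 439 to 857 CPM in number 1 and 595 to 686 CPM in number 2.

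**Figure D4:**
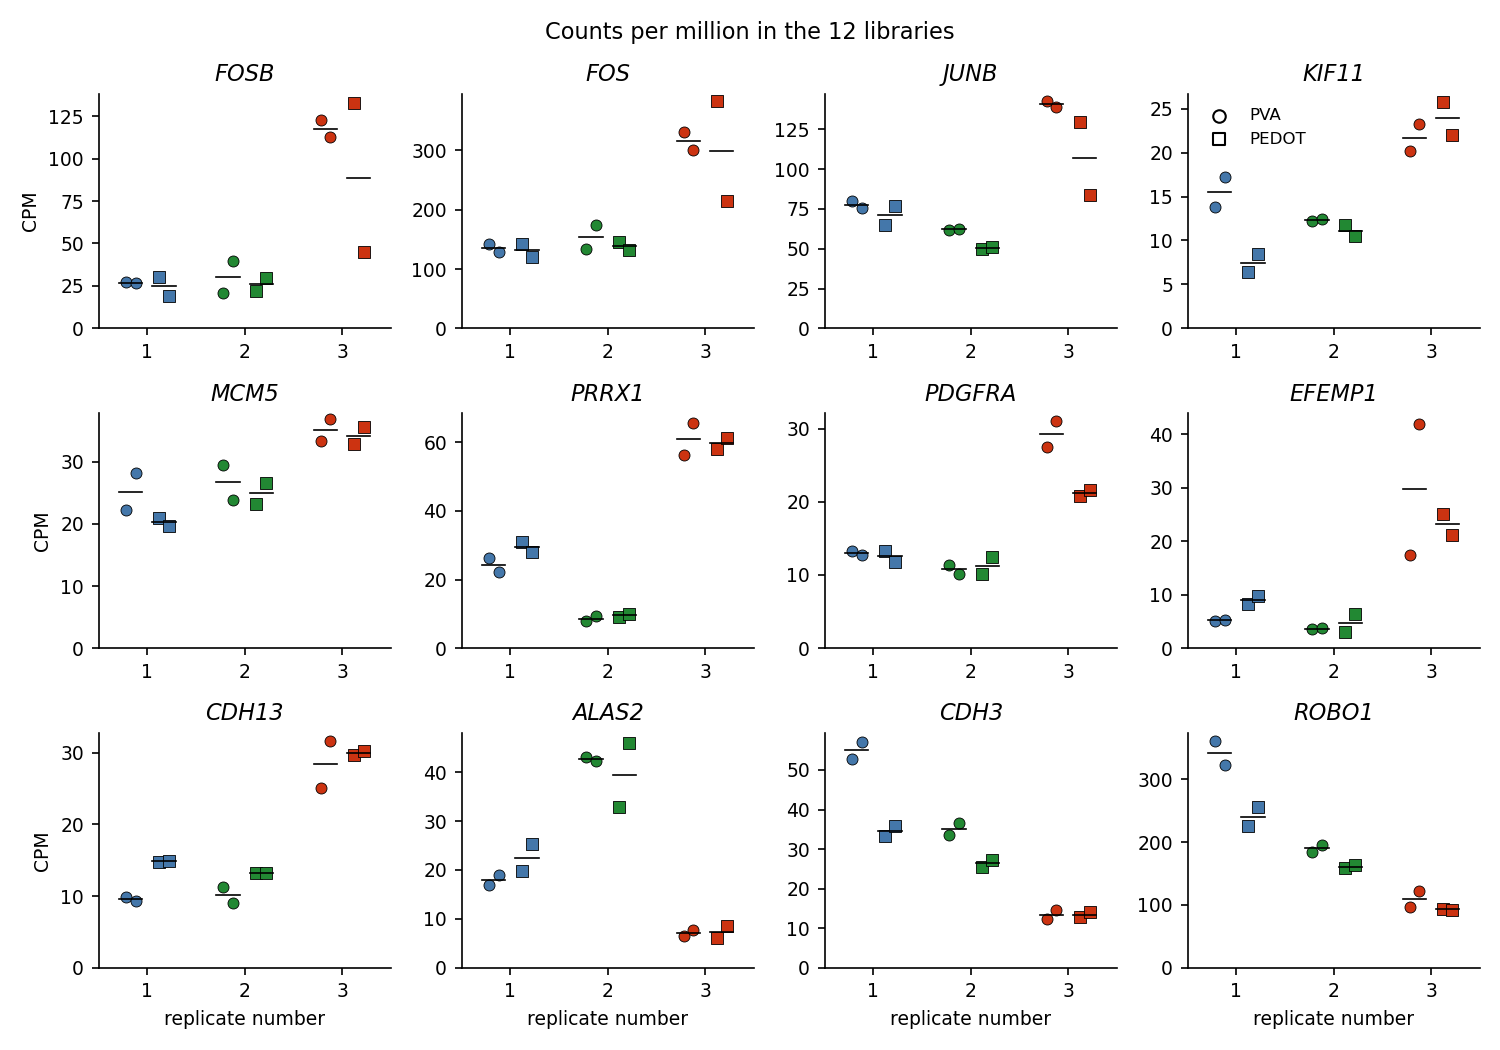
CPM (y axis, from 0) of 12 genes chosen from those outside both other numbers, by replicate number (x axis), with circles for PVA libraries, squares for PEDOT libraries and a line at the mean of each technical pair. ALAS2, CDH3 and ROBO1 have all 4 libraries of number 3 below the other 8, the other 9 genes have them above, and FOSB in PEDOT library 3 (44.9 CPM) is the nearest of the FOSB values to the other numbers.

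Targets of the tumour suppressor p53 had 5 of 17 members called lower and 1, BTG2, higher, with a median of -0.18. CDKN1A, the cyclin-dependent kinase inhibitor p21, was at 343 to 391 CPM in number 3, 365 to 442 CPM in number 1 and 499 to 701 CPM in number 2. Its log2 difference was -0.46 ± 0.08 (edgeR adjusted p 0.00183), and against number 1 alone it was -0.20. AEN, an apoptosis-enhancing nuclease, and FDXR, a mitochondrial reductase, were lower at -0.35 and -0.40, again with number 2 as the high one. Of 29 alternatives the call of AEN was lost in 5 and that of FDXR in 10, in both without PVA library 3 of number 3, and for FDXR also without PEDOT library 1 of number 3, PVA library 3 of number 1 or PEDOT library 2 of number 2. That of CDKN1A was lost without the PVA sum of number 3. Against number 2 alone 9 members fell and 2 rose, and against number 1 alone 0 fell and 2 rose. The 5 lower calls became 2 without PVA library 3 of number 3, 3 without PEDOT or PVA library 3 of number 1, or without PVA or PEDOT library 2 of number 2, 1 without the PVA sum of number 2, 2 without the PEDOT sum of number 3 and 0 without its PVA sum. They were 3 with DESeq2, 2 without the scaffold term, 1 with the lower-numbered technical libraries alone and 9 with library size only.

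Mesenchymal genes fell into sets with different orders of the numbers. Of 18 tested fibroblast markers, 9 were called higher in number 3 and 1 lower against the mean, with a median log2 difference of 0.61. Against number 2 alone 14 rose and 2 fell, whereas against number 1 alone 3 rose and 7 fell. Of all tested genes, 11.5% rose and 7.30% fell against number 2, and 6.65% rose and 6.50% fell against number 1. In bulk RNA, fewer cells of a type and less RNA per cell cannot be told apart. The markers' summed level was 321 to 399 CPM in number 3, 319 to 487 in number 1 and 208 to 244 in number 2, and none of the markers was at 0 in all libraries.

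PRRX1, a homeobox transcription factor of limb and heart mesenchyme (chr1:170662728-170739421, hg38), was the clearest case of a marker beyond both. It was at 56.4, 65.6, 58.0 and 61.4 CPM in number 3, at 26.4, 22.3, 31 and 28 CPM in number 1 and at 7.77, 9.24, 9.10 and 9.93 CPM in number 2. Every step of this order was larger than the spread within a number. The log2 difference from the mean was 1.95 ± 0.08 (SE, edgeR adjusted p 9.90e-10), and the difference from number 1, the nearer, was 1.16. EFEMP1, the matrix glycoprotein fibulin-3 (chr2:55865967-55924139), had the largest nearer difference among the named genes, at 1.90. It was at 17.5 and 42.0 CPM in the PVA libraries of number 3, 25.1 and 21.2 CPM on PEDOT, 5.13 to 9.73 CPM in number 1 and 2.93 to 6.43 CPM in number 2. GLIPR1, a cysteine-rich secretory family protein, was at 11.4 and 25.1 CPM on PVA and at 8.82 and 10.2 CPM on PEDOT, against 0.863 to 5.18 CPM. Both genes were high in PVA library 3. Their other libraries of number 3 also lay above numbers 1 and 2, which the rule that chose them requires.

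SNAI2, the transcription factor Slug, shared this form at 7.31, 15.0, 7.09 and 7.41 CPM in number 3, and its lowest library lay just above the 6.44 CPM of number 1. PDGFRA, a receptor for platelet-derived growth factor, was at 27.5 and 31 CPM on PVA and at 20.8 and 21.6 CPM on PEDOT, against 10.1 to 13.3 CPM. ROR2, a WNT5A receptor, was at 26.4 to 29.8 CPM in number 3 and 8.13 to 14.4 CPM elsewhere. SCUBE1, a secreted and cell-surface glycoprotein, was at 17.3 to 22.4 CPM against 4.62 to 8.74 CPM, and CXCL14, a chemokine, at 10.1 to 12.5 CPM against 1.93 to 5.16 CPM. CXCL12, the ligand of CXCR4, was at 47.8 to 53.4 CPM against 23.6 to 37.5 CPM. Each of these genes lay outside both numbers.

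A second set of mesenchymal genes stood level with number 1 or below it, and only number 2 was low. DDR2, a collagen receptor, was at 38.8 to 47.5 CPM in number 3, 38.1 to 56.3 CPM in number 1 and 8.75 to 10.2 CPM in number 2. It was called at 1.10 against the mean, but its difference from number 1 was -0.07. LUM was below number 1 at -0.75 and above number 2 at 3.37. THY1 was called at 2.12, with a difference of 0.39 from number 1 that did not pass (edgeR adjusted p 0.398).

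The matrix itself followed this second form. Of 26 tested collagens 16 were called higher and 0 lower, and of 26 matricellular and matrix glycoproteins 14 were higher and 1 lower, with medians of 0.51 and 0.61. Against number 2 alone 17 of each list rose, but against number 1 alone the collagens had 5 higher and 7 lower, and the glycoproteins 4 higher and 8 lower. COL6A3, a chain of type VI collagen, was at 375, 503, 364 and 326 CPM in number 3. It was at 246, 338, 436 and 504 CPM in number 1 and at 45.3, 45.7, 25.3 and 47.7 CPM in number 2, so numbers 3 and 1 overlapped fully. TNC, the matricellular protein tenascin C, was at 102 to 195 CPM in number 3, 131 to 299 CPM in number 1 and 4.83 to 7.61 CPM in number 2. THBS2, thrombospondin 2, was at 23.7 to 35.1, 29.3 to 57.4 and 1.55 to 2.69 CPM, and COL8A1, of type VIII collagen, at 338 to 480, 378 to 464 and 102 to 159 CPM. Called higher against the mean, all of these separated number 2 and not number 3.

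Some matrix genes did lie beyond both. COL14A1, a fibril-associated collagen, was at 70.5 to 101 CPM in number 3, 46.0 to 56.0 in number 1 and 18.1 to 25 in number 2, with a difference of 0.71 from the nearer. LAMA4, a laminin chain of vessel and muscle basement membranes, was at 162 to 195 CPM against 71.5 to 148 CPM, and here number 1 was the lowest. BGN, the proteoglycan biglycan, was at 17.2 to 22.5 CPM against 4.18 to 12.8 CPM. COL5A3 rose against each number alone, but its libraries of number 3 (5.75 to 9.25 CPM) met those of number 1 (3.54 to 5.83 CPM). Among metalloproteinases and their inhibitors, 5 of 17 were higher and 2 lower. The 5 became 9 without the PEDOT sum of number 1 and 3 without the PVA sum of number 3, and the 2 became 1 without PVA library 3 of number 2, without the PEDOT sum of number 3 or without the scaffold term. MMP14, a membrane-bound collagenase, was at 96.5 to 129 CPM in number 3 and 77.5 to 126 CPM in number 1, and at 18 to 28.7 CPM in number 2. MMP11, stromelysin 3, was the one outside both from below, at 28.3, 18, 34.1 and 23.2 CPM against 35.9 to 72.9 CPM. PAPPA and CCDC80 rose against both numbers, by 0.88 and 0.53 over number 1, with the unequal PVA libraries given above.

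Smooth muscle and pericyte markers had 7 of 14 members called higher and 0 lower, and the nearer number was again number 1. MYH11, smooth muscle myosin, was at 43.1 to 45.4 CPM in number 3, 43.6 to 52.5 CPM in number 1 and 4.01 to 5.69 CPM in number 2. Its log2 difference from the mean was 1.55 ± 0.08 (edgeR adjusted p 5.98e-08), while that from number 1 was -0.10. MYLK, which phosphorylates myosin light chains, was at 185 to 232, 165 to 218 and 24.8 to 31 CPM in numbers 3, 1 and 2. PDGFRB and NOTCH3, receptors of mural cells, had differences of 0.07 and 0.32 from number 1 and of 2.83 and 1.80 from number 2. The markers' summed level was 1776 to 2493 CPM in number 3, 2224 to 2825 in number 1 and 1348 to 1660 in number 2, with 0 of 14 absent.

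Genes of antigen presentation and interferon response had the same order. MHC class I and antigen processing genes had 9 of 15 members called higher against the mean, with 12 higher than number 2 and only 1 higher and 1 lower than number 1. HLA-B was at 339 to 443 CPM in number 3, 374 to 469 CPM in number 1 and 154 to 190 CPM in number 2. HLA-C and B2M, the light chain of class I molecules, had differences of 0.76 and 0.63 from number 2 and of 0.17 and 0.22 from number 1, of which the last 2 did not pass the threshold. HLA genes are alike in sequence and highly polymorphic, so their single counts are uncertain. The MHC count of 9 was 5 without the PEDOT sum of number 2 and 4 without that of number 3, and 5 without the scaffold term.

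Interferon response genes had 11 of 39 members called higher, with 24 higher and 0 lower than number 2 and 0 higher and 8 lower than number 1. IFITM1, a membrane protein that restricts viral entry, was at 6.05 to 10.2 CPM in number 3, 6.61 to 11.5 CPM in number 1 and 1.42 to 2.03 CPM in number 2. IFITM3 was at 158 to 239, 159 to 261 and 83.1 to 110 CPM. The 11 calls were 5 without PVA library 1 of number 3, the library with the high MX1, and 5 without the PVA sum of number 2 or the PEDOT sum of number 3. They were 6 without PEDOT library 3 of number 3, PEDOT library 2 or 3 or PVA library 3 of number 1, or PVA library 3 of number 2. They were 18 without the PVA sum of number 1. By method they were 2 without the scaffold term, 5 with library size only or at a mean of 5 CPM or more, and 6 with upper-quartile scaling. With the lower-numbered technical libraries alone they were 6 and with the higher-numbered ones 4. The call of IFITM3 was lost without the scaffold term.

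**Figure D5:**
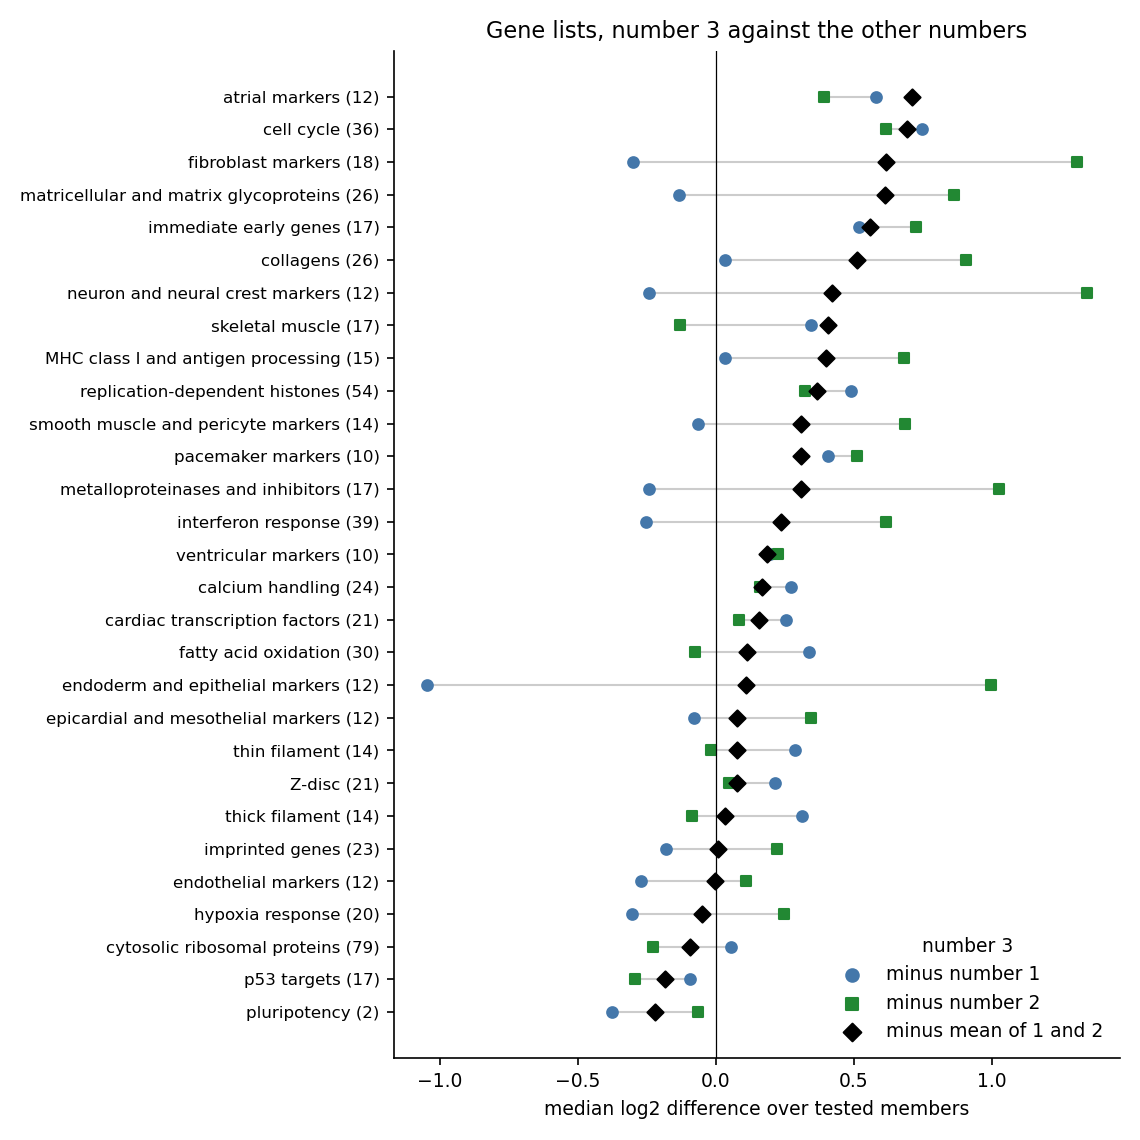
Median log2 difference of each gene list's tested members for number 3 minus number 1, minus number 2 and minus their mean. Lists above 0 against both numbers include immediate early genes, cell cycle genes, histones, and atrial, pacemaker, ventricular and calcium handling genes. Matrix, smooth muscle, interferon and neuron lists are well above 0 only against number 2. A list's middle value need not lie between the others because each is a median of its own.

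Among cardiac genes, 9 of 12 tested atrial markers were called higher in number 3 than the mean of the others and 0 lower, with a median of 0.71 (0.69 on PVA and 0.64 on PEDOT). Their summed level did not follow this: it was 3307 to 3880 CPM in number 3, between the 2160 to 3150 CPM of number 1 and the 4844 to 5105 CPM of number 2. Against number 1 alone 8 rose and 0 fell, and against number 2 alone 7 rose and 1 fell. The count was between 7 and 9 in all settings tried. NR2F1, the nuclear receptor COUP-TFI that marks atrial identity, was at 7.88, 7.50, 5.66 and 6.61 CPM in number 3. It was at 1.56, 1.44, 2.15 and 2.55 CPM in number 1 and 4.32, 3.42, 3.54 and 4.16 CPM in number 2, so number 3 was above both without overlap. The log2 difference was 1.35 ± 0.17 (edgeR adjusted p 1.23e-04). KCNJ3, a subunit of the acetylcholine-gated potassium channel of atrial cells, was at 48.7 to 54.0 CPM against 30.7 to 40.9 CPM, and also lay outside both.

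Other atrial genes were near number 2. NPPA, the atrial natriuretic peptide, was at 656, 638, 439 and 528 CPM in number 3, 152 to 228 CPM in number 1 and 411 to 569 CPM in number 2. It was called at 0.90 ± 0.12 (edgeR adjusted p 1.22e-04), with a difference of 1.62 from number 1 and 0.19 from number 2. GJA5, connexin 40 of atrial and conduction tissue, was at 7.81 to 11.2 CPM in number 3, 1.71 to 3.19 in number 1 and 8.84 to 11.1 in number 2. KCNA5, the atrial potassium channel Kv1.5, was at 11.9, 6.46, 11.6 and 8.12 CPM against 2.69 to 3.86 and 3.76 to 6.96 CPM, and PVA library 3 overlapped number 2. MYL7, the atrial light chain, was at 1742 to 2138 CPM in number 3, between 867 to 1751 in number 1 and 2993 to 3356 in number 2. Its log2 difference of -0.10 ± 0.11 did not pass. SLN, sarcolipin, an inhibitor of the calcium pump, was called at 1.10 at a level of 5.23 to 6.18 CPM, and number 1 reached 6.38 CPM. That call was lost without the scaffold term, with the higher-numbered technical libraries alone and without the PVA sum of number 3.

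Ventricular markers were mixed, with 4 of 10 higher and 1 lower and a median of 0.19. IRX4, a ventricular homeobox factor, was at 47.2 to 57.8 CPM against 15.9 to 36.1 CPM and lay outside both, at 0.94 ± 0.08 (edgeR adjusted p 1.94e-06). HAND1, a factor of early ventricular development, was at 25.3 to 27.9 CPM, 18.9 to 22.9 CPM in number 1 and 10.2 to 16.2 CPM in number 2, and its difference from number 1 did not pass. MYH7, the slow beta myosin, was at 804, 1274, 1138 and 1367 CPM in number 3 and was called at 0.84 ± 0.17 (edgeR adjusted p 0.00524). That call was lost in 5 of 29 alternatives, with DESeq2, at a mean of 5 CPM or more, without the scaffold term, with the lower-numbered technical libraries alone and without the PVA sum of number 3, with adjusted p-values of up to 0.425. In number 1 MYH7 was at 432 and 459 CPM on PVA and at 1467 and 1446 CPM on PEDOT, a wider gap than that between numbers. MYL2, the ventricular light chain, was at 206 to 322 CPM, with -0.13 ± 0.13 (adjusted p 0.616). The ventricular count was 2 without the PVA sum of number 3.

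Pacemaker markers had a count of 6 of 10 higher and 0 lower against the mean. Against number 1 alone 6 rose and 1 fell, and against number 2 alone 4 rose and 2 fell. SHOX2, a sinus node homeobox factor, was at 22.2 to 25.7 CPM in number 3, 22.5 to 26.6 in number 1 and 4.92 to 6.13 in number 2. TBX18, which is expressed in the sinus node and in epicardium, was at 16.2 to 22.7, 11.4 to 18.9 and 2.20 to 3.20 CPM. HCN4, the pacemaker channel, was at 359 to 400 CPM in number 3, between the 212 to 239 CPM of number 1 and the 522 to 586 CPM of number 2, and was not called. The count of 6 became 3 without either sum of number 3. Cardiac transcription factors had 7 of 21 higher and 0 lower, 5 of them outside both. HEY1, a Notch target of the atrium, was at 33.8 to 35 CPM against 18.8 to 25.9 CPM. The core factors NKX2-5 and GATA4 were level, at -0.01 ± 0.07 each, with GATA4 at 335 to 353 CPM in number 3 and 316 to 380 CPM in the others.

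Most genes of the contractile apparatus were not called against the mean. Higher calls made up 6.64% of all tested genes, less than their share in the thin filament and Z-disc lists, and lower calls 3.13%. Thick filament genes had 1 of 14 called higher and 1 lower (median 0.03), thin filament genes 3 of 14 and 1 (0.08), and Z-disc genes 5 of 21 and 0 (0.08). More were called against single numbers, as were more of all tested genes (13.2% against number 1 and 18.8% against number 2, beside 9.77% against the mean). Against number 1 alone 6 thick filament, 4 thin filament and 8 Z-disc genes rose and 0 fell in each list. Against number 2 alone 1 thick filament gene rose and 4 fell, 2 thin filament genes rose and 4 fell, and 3 Z-disc genes rose and 2 fell. MYH6 was at 0.08 ± 0.09, TTN at 0.24 ± 0.10, ACTN2, which crosslinks actin at the Z-disc, at 0.02 ± 0.10 and TNNI1, the fetal troponin I, at 0.08 ± 0.07, and none passed. TNNT2 was called lower at -0.35 ± 0.08 (edgeR adjusted p 0.00851), with a difference of -0.56 from number 2 and -0.14 from number 1. The call was lost without either sum of number 3 and with the lower-numbered technical libraries alone, with adjusted p-values of up to 0.187. TNNI3, the adult cardiac troponin I, was at 28.6 to 39.1 CPM and was not called. Single sums moved the small counts: without the PVA sum of number 3, 0 thick filament, 1 thin filament and 1 Z-disc gene were higher. Without the PEDOT sum of number 1, 6 thin filament and 10 Z-disc genes were. The thin filament count was also 1 without PEDOT library 2 of number 1, PVA library 3 of number 2 or either sum of number 2, and 5 without the PEDOT sum of number 3, and DESeq2 called 0 higher. The Z-disc count was 3 without PEDOT library 2 of number 1, PVA library 1 of number 3 or the PEDOT sum of number 2.

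Shares within pairs of paralogous genes were compared in a design too small to pass the threshold. MYH7 made up 5.64% of MYH7 plus MYH6 counts in number 3 and 4.11% (SD 3.13, 4 sums) in numbers 1 and 2, with an exact permutation p of 0.6. MYL2 in MYL2 plus MYL7 was 13.2% against 15.1% (SD 9.00), exact p 0.867. TNNI3 in TNNI3 plus TNNI1 was 2.04% in both, exact p 1. The 7 shares compared in this way had two-sided exact p-values of 0.4 to 1, and 1 after Benjamini-Hochberg adjustment. With 2 sums against 4 there are 15 assignments, and the smallest p they allow is 0.0667, so this design cannot reach 0.05.

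Calcium handling genes showed a few members beyond both numbers. Of 24 calcium handling genes 6 were higher and 1 lower, with a median of 0.17. CASQ2, the cardiac calcium buffer calsequestrin 2, was at 5.63, 7.27, 6.01 and 6.74 CPM in number 3, 0.946 to 2.85 CPM in number 1 and 1.98 to 3.33 CPM in number 2. Its log2 difference was 1.63 ± 0.21 (edgeR adjusted p 1.08e-04), and no libraries overlapped. CASQ1, the skeletal form, was at 95.1 to 121 CPM against 64.5 to 94.0 CPM, and ATP2B4, a plasma membrane calcium pump, at 1507 to 1586 CPM against 946 to 1322 CPM. The call of CASQ1 was lost without the PVA sum of number 3. The main sarcoplasmic reticulum genes did not pass: RYR2, the release channel, was at 0.23 ± 0.08, ATP2A2, the SERCA2 pump, at 0.16 ± 0.08 and PLN, its inhibitor phospholamban, at 0.23 ± 0.09. The count of 6 became 2 without the PVA sum of number 3 12 without the PEDOT sum of number 1 and 3 without the scaffold term. GJA1, connexin 43, was called at 0.40 ± 0.09 (edgeR adjusted p 0.0141), a call lost in 7 of 29 alternatives, among them leaving out library 3 of number 3 on either scaffold. KCNJ2, the inward rectifier, was at 0.22 ± 0.20 and did not pass.

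Several genes of metabolism lay outside both numbers. ALAS2, the erythroid form of the first enzyme of haem synthesis (chrX:55009055-55030977), was at 6.57, 7.81, 6.01 and 8.58 CPM in number 3. It was at 16.9, 18.9, 19.7 and 25.3 CPM in number 1 and 43.1, 42.2, 32.9 and 46.0 CPM in number 2. All libraries of number 3 were at less than the lowest library elsewhere, and the log2 difference was -1.99 ± 0.11 (SE, edgeR adjusted p 8.32e-08). LPL, lipoprotein lipase, was at 14 to 16.2 CPM in number 3, 35.9 to 42.4 CPM in number 1 and 25.4 to 26.9 CPM in number 2, a log2 difference of -1.12 ± 0.09 (adjusted p 1.06e-06). G0S2, an inhibitor of the lipase ATGL, was also lowest in number 3, at 21.2 to 35 CPM against 46.9 to 61.1 CPM.

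Other genes were highest in number 3. PDK4, a kinase that inhibits pyruvate dehydrogenase, was at 105, 148, 103 and 105 CPM against 44.2 to 68.7 CPM, a log2 difference of 1.06 ± 0.11 (edgeR adjusted p 1.42e-05). PLIN2, a coat protein of lipid droplets, was at 125, 91.2, 110 and 81.3 CPM against 53.8 to 66.8 CPM. CKM, the muscle creatine kinase, was at 460, 353, 463 and 408 CPM against 205 to 265 CPM, and 0.82 ± 0.07 (adjusted p 4.52e-06). SLC7A11, the cystine transporter, was at 39.1 to 45.3 CPM against 23.1 to 36.6 CPM, and NIPSNAP3B, of a family of mitochondrial proteins, at 63.4 to 73.4 CPM against 29.4 to 36.3 CPM. As a whole, fatty acid oxidation genes had 7 of 30 higher and 1 lower (median 0.11), with 16 higher and 2 lower than number 1 and 4 higher and 2 lower than number 2. CPT2, a carnitine acyltransferase, was at 68.2 to 71.4 CPM, 45.6 to 50.6 CPM in number 1 and 55.5 to 64.3 CPM in number 2. The call of CPT2 was lost without either sum of number 3. The 7 became 2 without the PVA sum of number 3, 3 without its PEDOT sum, 4 without the PEDOT sum of number 2 and 14 without the PEDOT sum of number 1.

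Hypoxia response genes had 1 of 20 called higher and 0 lower (median -0.05), where 6.64% and 3.13% of all tested genes were. Because the technical libraries of number 3 differed in these genes, the result turned with the library used: lower-numbered libraries alone gave 4 higher, 0 lower and a median of 0.35, and higher-numbered ones gave 1 higher, 12 lower and a median of -0.50. Without PVA library 1 of number 3 there were 5 lower, and without PEDOT library 1 there were 2. Without PEDOT library 3 of number 3 there were 4 higher.

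The remaining named genes that lay outside both from above include several of the nerve and the cell surface. SLC6A2, the noradrenaline transporter, was at 37.2, 37.2, 34.8 and 35.5 CPM in number 3 and 10.4 to 14.6 CPM in the 8 others, a log2 difference of 1.54 ± 0.09 (edgeR adjusted p 1.28e-07). GRIA1, an AMPA-type glutamate receptor subunit, was at 20.1, 19.6, 12.6 and 17.2 CPM against 4.93 to 8.14 CPM. CDH13, the atypical cadherin T-cadherin, was at 25.1 to 31.6 CPM against 9.08 to 14.9 CPM. CPXM2, a carboxypeptidase-like secreted protein, was at 117, 113, 90.1 and 103 CPM against 37.5 to 56.1 CPM. In all 4 genes numbers 1 and 2 were close to each other and number 3 stood alone.

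From below, CDH3, the adhesion molecule P-cadherin (chr16:68636189-68722616), was at 12.3, 14.7, 12.9 and 14 CPM in number 3, 33.4 to 57.1 CPM in number 1 and 25.5 to 36.7 CPM in number 2. Its log2 difference was -1.44 ± 0.12 (SE, edgeR adjusted p 1.46e-06). ROBO1, a receptor for the guidance protein SLIT, was at 92.2 to 122 CPM against 225 to 360 and 158 to 196 CPM. FAM20A, a partner of the secretory kinase FAM20C, was at 11.1 to 13.2 CPM against 22.2 to 44.8 CPM. ATP8A1, a phospholipid flippase, was at 8.65 to 10.4 CPM against 17.7 to 26.3 CPM, with numbers 1 and 2 alike. INSRR, an alkali-sensing receptor of the insulin receptor family, was at 6.35 to 11.8 CPM against 12.8 to 21.5 CPM.

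HS6ST3, a heparan sulfate sulfotransferase, was at 3.92 to 5.61 CPM against 8.17 to 17 CPM. GPR37, an orphan receptor, and EYA1, a phosphatase and transcriptional coactivator, were at 7.48 to 10.1 and 6.60 to 9.85 CPM against 13.8 to 18.9 and 11.5 to 16.6 CPM. CD24, a small surface glycoprotein, and ASTN1, a neuronal adhesion protein, had nearer differences of -1.01 each. ZCCHC12, a zinc finger protein of brain, was at 3.37 to 4.49 CPM, and its lowest other library was at 4.77 CPM. TNMD, tenomodulin of tendon, was at 1.51 and 3.31 CPM on PVA and at 2.64 and 4.14 CPM on PEDOT, against 4.45 to 9.62 CPM, with the technical libraries apart as given above.

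Markers of other cell types gave small numbers of genes beyond both. Epicardial and mesothelial markers had 5 of 12 higher and 2 lower. KRT19, a keratin of mesothelium, was at 88.8, 63.4, 66.6 and 44.9 CPM in number 3, 29.1 to 58.0 CPM in number 1 and 9.80 to 16.2 CPM in number 2, and BNC1, a mesothelial zinc finger factor, was outside both at 2.16 to 2.89 against 0.418 to 1.28 CPM. The list's summed level was 1034 to 1428 CPM in number 3, within the span of the others (949 to 1740 CPM). Against 6.64% and 3.13% of all tested genes, endothelial markers had 0 of 12 higher and 1 lower, EMCN, under 1 CPM in every library. Their summed level was 49.8 to 67.9 CPM in number 3 and 56.0 to 77.7 CPM in the others. The EMCN call was lost in 12 of 28 alternatives, among them leaving out PVA library 1, PEDOT library 1 or PEDOT library 3 of number 3, PEDOT library 3 of number 1, or PVA library 3 of number 2.

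Endoderm and epithelial markers had a median below number 1 and above number 2. Of 12 tested, 1 was higher and 1 lower against the mean, where 6.64% and 3.13% of all tested genes were. Against number 1 alone 1 rose and 5 fell, with a median of -1.05, and against number 2 alone 6 rose and 0 fell, with a median of 1.00. PAEP, the secreted lipocalin glycodelin, was at 2.85 to 6.27 CPM in number 3, 45.7 to 103 CPM in number 1 and 1.51 to 4.07 CPM in number 2. EPCAM, an epithelial adhesion molecule, was outside both at 5.35 to 6.23 CPM against 1.84 to 3.34 CPM. The lower count was 3 without PVA library 1 of number 3. Neuron and neural crest markers had 4 of 12 higher and 0 lower, with 9 higher than number 2 and 4 lower than number 1. CHRNA3, a nicotinic receptor subunit of autonomic neurons, was at 59.1, 64.3, 45.6 and 52.0 CPM in number 3, 43.2 to 66.8 CPM in number 1 and 2.37 to 3.40 CPM in number 2. The list's summed level was 99.5 to 125 CPM, 115 to 167 CPM and 33.5 to 40.4 CPM in numbers 3, 1 and 2, and 2 of its genes were at 0 in all libraries.

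Skeletal muscle genes had 7 of 17 higher and 0 lower, a count that was 4 without PVA library 1 or PEDOT library 1 of number 3, without PVA library 3 of number 1, or without any of 5 of the 6 sums. CKM, which cardiomyocytes also express, was described above. PAX3, a factor of muscle and neural crest progenitors, was at 9.25 to 10.1 CPM in number 3, 1.04 to 1.66 CPM in number 1 and 9.31 to 12.6 CPM in number 2. For pluripotency genes only 2 passed the filter on low counts, and their list summed to 9.69 to 12.3 CPM in number 3 and 11.3 to 17.8 CPM in the others.

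Imprinted genes, which are expressed from 1 parental copy, had 5 of 23 higher and 2 lower, with a median of 0.006. H19, a maternally expressed noncoding RNA, was at 60.5 to 75.1 CPM in number 3, 67.4 to 89.6 CPM in number 1 and 13.3 to 14.9 CPM in number 2. DLK1, a Notch-related growth regulator, was at 114 to 166, 160 to 295 and 22.3 to 29.2 CPM in the same order, below number 1. MEST, a paternally expressed gene, was outside both at 28.7 to 36.5 CPM against 18.7 to 23.3 CPM and 8.11 to 15.6 CPM. Cytosolic ribosomal protein genes had 0 of 79 higher and 3 lower, the latter near the 3.13% of all tested genes, with a median of -0.09. Against number 2 alone 29 were lower, where 7.30% of all tested genes were. Against number 1 alone 0 were lower, where 6.50% of all tested genes were. The 3 became 14 without the PVA sum of number 1, 8 without PVA library 1 of number 3, 6 without PVA library 2 of number 1 and 0 without library 3 of number 3 on either scaffold. By chromosome the median log2 difference of tested genes lay between -0.06 (chromosome 16) and 0.04 (chromosome 5), so by the median no chromosome moved as a block. The share called higher ran from 3.98% (chromosome 19) to 10.6% (chromosome 18), and that called lower from 1.58% (chromosome 18) to 4.80% (chromosome 4). These shares were not tested.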

How the data were processed

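RNA from 12 libraries was counted by the authors. Per the file headers, the deposited values are raw read-pair counts summed by gene name, made with featureCounts 2.0.1 (paired, reversely stranded) from STAR alignments on GENCODE release 33. The build hg38 and the tools FastQC, DESeq2 and edgeR are listed in the submitters' processing notes, and the version of STAR is not given in the sources used here. Reads that match several places were left out by default, which lowers near-identical paralogs. All 60583 rows name a gene.

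The technical libraries of each number and scaffold were summed to 6 sums, since their separation is not stated. Genes kept by filterByExpr (minimum count 10, minimum total 15) were tested in edgeR 4.0.16 under R 4.3.3 with TMM scaling, quasi-likelihood F tests and terms for number and scaffold, two-sided, with Benjamini-Hochberg adjustment over 22262 genes. The contrast was number 3 minus the mean of numbers 1 and 2. An SE is the log2 difference divided by the square root of F. Log2 CPM used a prior count of 2. The procedure was tested on simulated data. DESeq2 1.42.0 and limma 3.58.1 (voom) were alternatives, beside other scalings, filters, no scaffold term, unsummed or single technical libraries, and each sum or library left out. Leaving out single libraries of numbers 1 and 2, and the list counts under each alternative, were chosen after seeing the data.

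The named genes are the 15 per direction outside both numbers with the largest nearer difference at a mean of 5 CPM or more and a symbol that is not a clone or locus name, up to 4 called members of each list with the smallest p, a panel of cardiac genes, and the 10 genes per direction that differed most between the PVA libraries of number 3. Not every gene the rule gives is described. Some results are not reported here. MYC was named after its value was seen. The members, the gene lists and the panel were chosen with earlier results of these data known, and lists were described by counts and medians without a test. Where numbers are not stated to be separate cultures, a p-value reflects nothing beyond the spread among these samples, which may be technical. Promoter sequences come from RefSeq (GRCh38.p14).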

Additional observations from a re-analysis of the deposited data

Results flagged for a closer look

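In groups of 4 libraries of 1 number, the highest or lowest library stood apart from the rest in 14 of 387 groups looked at. The measure is the gap to the nearest library divided by the group's range, read against Dixon's 95% critical value for 4 values, and chance gives about 1 in 20 groups. In number 3, FOSB had a value of 0.850, with PEDOT library 3 at 44.9 CPM and the others at 113 to 133 CPM. PDK4 had 0.946, with PVA library 3 at 148 CPM against 103 to 105 CPM. THY1 had 0.951 and SNAI2 0.942, both with PVA library 3 as the high one, at 32.6 and 15.0 CPM. MYL7 had 0.930 with PEDOT library 3 high at 2138 CPM, and ACTN2 had 0.855 with PEDOT library 1 low at 1320 CPM. In number 1, NIPSNAP3B had 0.961 (PVA library 2 at 30.1 CPM against 32.1 to 32.2 CPM) and EMCN 0.864 (PVA library 3 at 0.249 CPM). In number 2, PEDOT library 1 was low for COL6A3 (0.919, at 25.3 CPM) and THBS2 (0.899, at 1.55 CPM) and high for CKM (0.889, at 265 CPM). PVA library 2 of number 2 was low for INSRR (0.837, at 15.8 CPM) and PLIN2 (0.946, at 54.7 CPM), and PVA library 3 was high for KCNJ3 (0.830, at 35.4 CPM).

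Number 3 differed from numbers 1 and 2 in opposite directions on the scaffolds, in every library, for 7 of 158 genes and lists looked at, and none of these differences was tested. The log2 difference on PVA minus that on PEDOT was 0.294 for MYL7, 0.768 for TNNI3, 0.338 for ACTN2 and 1.34 for NPPB, the B-type natriuretic peptide. On PVA number 3 was above the others by 0.53 for TNNI3 and 0.94 for NPPB, and on PEDOT it was below them, at -0.24 and -0.39. KCNJ2 went the other way, with -0.772. The thin filament list had a difference of 0.284, and the endoderm and epithelial list one of 1.22.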

How the results depend on the processing

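Of 104 named genes called, 90 kept the call in every alternative in which they were tested and 14 lost it in 1 or more, and 16 uncalled named genes were called in 1 or more. Many genes were named for large differences or small p-values in these same data, which favours keeping a call. Of all 2174 genes called, 1483 were also called without the scaffold term and 1736 with library size only. A change of sign was counted only where the gene was called in the main fit or in that alternative, and 4 named genes had one. Genes called in neither were not counted, and several of them also spanned 0. STC1, for example, ran from -1.91 to 0.43 and DDIT4 from -0.69 to 1.12. With the lower-numbered technical libraries only, APLN was at 0.157 and CYP1B1 at -0.223, with the higher-numbered ones MIR210HG was at -1.25, and NPPB was at -0.426 without the PVA sum of number 3 and 0.905 without its PEDOT sum; the cause was not tested. The counts against the mean were 2174 genes (1478 higher, 696 lower) and those outside both numbers 467 (318 and 149). At a mean of 5 CPM or more, with fewer genes tested, they were 1301 (853 and 448), with 201 outside higher. With the 12 libraries unsummed they were 3693 (2242 and 1451) and 765 outside, 292 of them lower. With the lower-numbered technical libraries only they were 1098 (846 and 252) and 302, 75 of them lower. DESeq2 gave 93 outside lower and library size only 240, and without the scaffold term 442 were called lower. DESeq2 called 1570 genes, 1547 of them shared with edgeR's 2174. Leaving out each sum or library in turn gave 1036 to 3184 called, 751 to 2174 higher, 285 to 1010 lower and 272 to 570 outside (187 to 404 higher, 79 to 166 lower), lowest without a sum of number 3, where the lone sum left is assumed to vary like the others. Asking for 2-fold left 91 outside genes. Between the PVA libraries of number 3, 183 genes passed 2-fold at a mean of 1 CPM or more and 219 passed 1.5-fold. No paired analysis was possible because the replicate numbers are the groups compared, and the scaffold was the block. With 2 sums a number the spread is poorly known, and genes under about 1 CPM are limited by depth.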
